A study of Homo sapiens with 3 samples.

Results

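MicroRNAs (miRNAs) of the miR-99, miR-100 and miR-125 families were examined in 3 small RNA libraries of HCCLM3, a human hepatocellular carcinoma cell line. The members were taken by name. All listed arms and copies of hsa-miR-99a, hsa-miR-99b, hsa-miR-100, hsa-miR-125a and hsa-miR-125b were included, which gave 11 of the 1921 miRNA names in the count tables. They comprised 5 names from the 5p arm of the hairpin and 6 from the 3p arm. The parent library was labelled as low in metastasis, although the study's text presents its fluorescent parental line as highly metastatic. Subclone1 was labelled as lung-tropic, and subclone2 as spreading to lung and celiac lymph node. All strains were cultured in DMEM, with no treatment given in the labels. Per the study's methods its subclones were grown from single cells of lung or lymph node metastases in nude mice. Each subclone therefore stands for 1 clone, and the labels do not tell which of the study's clones was sequenced. Each strain had 1 library, so strains could not be tested against each other and p-values are absent.

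miR-99/100 and miR-125 hairpins lie beside let-7 hairpins in conserved clusters that are transcribed together from long host transcripts. miR-125 is the vertebrate relative of lin-4, and lin-4 and let-7 were found as timers of development in the worm. In mammalian cells miR-99 and miR-100 are known to repress the growth kinase MTOR. miR-125 is known to repress LIN28, an inhibitor of let-7 processing, and the receptor genes ERBB2 and ERBB3. A miRNA recognises its targets mainly through its seed, bases 2 to 8 from the 5′ end, so names with the same seed tend to share targets.

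The mature 5p sequences are shown with the seed in capitals, since they set out which members share a seed and which could exchange reads. They are RefSeq sequences from a table of build GRCh38.p14, where all 11 names were matched.
hsa-miR-99a-5p: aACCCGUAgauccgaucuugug
hsa-miR-100-5p: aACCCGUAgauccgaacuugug
hsa-miR-99b-5p: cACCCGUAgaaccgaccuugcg
hsa-miR-125a-5p: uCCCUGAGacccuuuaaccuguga
hsa-miR-125b-5p: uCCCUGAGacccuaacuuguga

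The first 3 sequences share the seed ACCCGUA and the last 2 share CCCUGAG. hsa-miR-100-5p differs from hsa-miR-99a-5p by the single substitution A16U, with positions counted from 1 at the 5′ end and the base of hsa-miR-100-5p first. It differs from hsa-miR-99b-5p by A1C, U11A, A16C and U21C. A read with an error at base 16 could therefore have been given to the wrong one of hsa-miR-99a-5p and hsa-miR-100-5p, and the division between these names is uncertain. hsa-miR-125a-5p and hsa-miR-125b-5p share a run of 13 bases from the 5′ end and differ in length, with 24 and 22 bases. Their last bases are alike again when the 3′ ends are aligned. Among the other listed names with a reference sequence, only hsa-miR-4319 carries either seed, and it had 0 counts in every library.

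The 3p sequences matter for telling the copies of miR-125b apart and for the arm comparison of miR-99b. The capitals again mark bases 2 to 8.
hsa-miR-99b-3p: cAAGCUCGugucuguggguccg
hsa-miR-125b-1-3p: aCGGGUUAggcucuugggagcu
hsa-miR-125b-2-3p: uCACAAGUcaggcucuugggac

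The hairpins form 3 clusters in the annotation (GENCODE 29, GRCh38). These positions come from the annotation alone, because the count tables hold no coordinates and the submitters' processing notes name hg19. On chromosome 19, MIR99B (51692612 to 51692681), MIRLET7E and MIR125A (51693254 to 51693339) lie on the plus strand in an intron of SPACA6. They also overlap an exon of SPACA6P-AS on the other strand. On chromosome 21, MIR99A (16539089 to 16539169), MIRLET7C and MIR125B2 (16590237 to 16590325) lie on the plus strand in an intron of MIR99AHG. On chromosome 11, MIR100 (122152229 to 122152308), MIRLET7A2 and MIR125B1 (122099757 to 122099844) lie on the minus strand in introns of MIR100HG. The gap from MIR99B to MIR125A is 572 bases, whereas MIR99A lies 51067 bases from MIR125B2 and MIR100 lies 52384 bases from MIR125B1. hsa-miR-125b-5p is cut from both MIR125B1 and MIR125B2, so its counts belong to chromosomes 11 and 21 together.

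**Figure D1:**
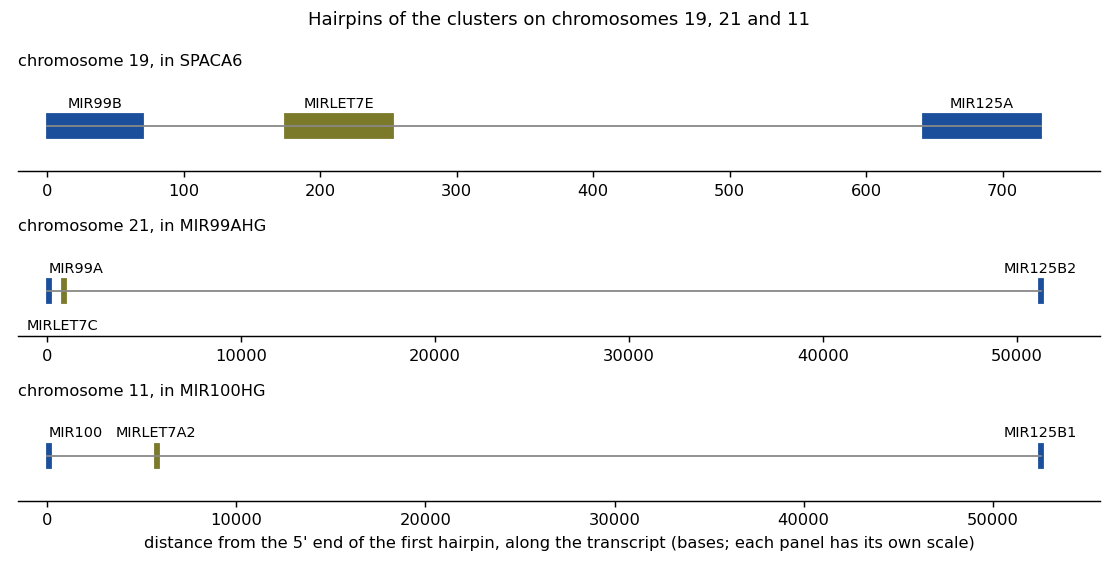
Hairpins of the 3 clusters placed by their distance in bases from the first hairpin along the transcript, with miR-99, miR-100 and miR-125 hairpins in blue and let-7 hairpins in olive. Each panel has its own scale, and the hairpins of the chromosome 21 and 11 panels are drawn wider than their true length. MIR99B and MIR125A are 572 bases apart, while the miR-125b hairpins lie 51067 and 52384 bases from MIR99A and MIR100.

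Values set in a row of 3 are for the parent, subclone1 and subclone2, in that order. The total counts were 7902438, 3570864 and 4568075, so counting error was smallest in the parent. Levels are given as CPM, the counts of a name per 1000000 counts of its library. Names without a count could have reached 0.380, 0.840 and 0.657 CPM (a limit of 3 counts of the total, which is lower than the upper end of a two-sided exact interval). The libraries come from whole cultures, in which fewer cells with a miRNA and less of it per cell cannot be told apart. Intervals are exact 95% intervals that cover counting error only, since the reads carry no molecular identifiers and the spread between cultures was not measured. The let-7 family took 66.9% to 69.1% of each library. Of 5 hepatocyte markers, hsa-miR-122-5p (6.71, 5.32 and 3.94 CPM), hsa-miR-148a-3p (3.42, 6.72 and 5.47 CPM) and hsa-miR-885-5p (0 in every library) were low or absent. hsa-miR-194-5p had 108, 271 and 263 CPM and hsa-miR-192-5p 18528, 60246 and 69068 CPM, so the hepatocyte sum (18646, 60529 and 69340 CPM) was higher in both subclones. Markers of other cell types were low, with summed levels of 16.3, 10.1 and 15.5 CPM for erythroid cells, 0.633, 1.4 and 1.09 for leukocytes, 0.633, 2.24 and 0.438 for endothelium, 4.94, 2.24 and 2.19 for stroma and smooth muscle, and 7.59, 23.2 and 7.88 for skeletal muscle. Of these 16 markers 11, 12 and 9 were detected, and hsa-miR-142-3p, hsa-miR-144-3p and hsa-miR-214-3p were at 0 in every library. Nearly all of the erythroid sum was hsa-miR-486-5p (129, 35 and 70 counts). Most of the skeletal muscle sum was hsa-miR-1 (53, 77 and 32 counts). The part of the markers in any result was not tested.

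Together the 11 names held 2045, 1445 and 1544 CPM. The summed level was lower in both subclones, at 0.707 times the parent level in subclone1 (log2 -0.50, interval -0.55 to -0.46) and 0.755 times in subclone2 (log2 -0.41, interval -0.45 to -0.37). The whole family was a small part of each library, beside the let-7 miRNAs of the same clusters.

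hsa-miR-99b-5p was the most abundant member in every library, with 773, 460 and 480 CPM. hsa-miR-100-5p followed with 451, 299 and 387 CPM. hsa-miR-125a-5p had 356, 276 and 254 CPM. hsa-miR-99a-5p had 272, 222 and 239 CPM, and hsa-miR-125b-5p was the lowest 5p name with 138, 124 and 141 CPM. The order of these 5 names was the same in the 3 libraries, but the intervals of hsa-miR-100-5p and hsa-miR-125a-5p overlapped in subclone1, and those of hsa-miR-125a-5p and hsa-miR-99a-5p overlapped in subclone2. The span between the highest and the lowest 5p name was 5.61, 3.70 and 3.42 times. Levels of different miRNAs also carry the preference of the ligation step for certain ends, so this order describes read counts only.

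Of the 6 names from the 3p arm, hsa-miR-99b-3p (29.7, 33.9 and 23.9 CPM) and hsa-miR-125b-2-3p (20.2, 21.8 and 14.0 CPM) exceeded 10 CPM. The other 4 had few counts. hsa-miR-99a-3p had 22, 11 and 4 counts, and hsa-miR-125a-3p had 15, 8 and 11. hsa-miR-125b-1-3p had 3, 4 and 5 counts, and hsa-miR-100-3p had 2, 4 and 0. Comparisons kept names that averaged 10 CPM or more in the pair of libraries, which left 7 of the 11 names each time.

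**Figure D2:**
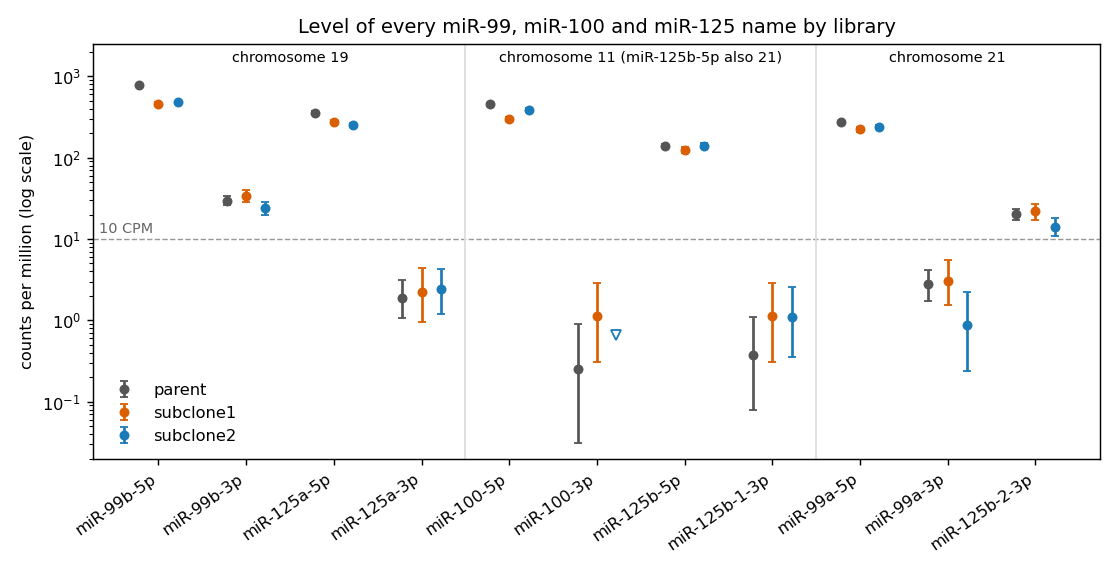
Level of each of the 11 names in CPM (log scale) by library, with exact 95% binomial intervals and the names grouped by chromosome. The open triangle is no such interval but the 3-count limit for miR-100-3p in subclone2, which had 0 counts (0.657 CPM). In miR-99b-5p, miR-100-5p, miR-125a-5p and miR-99a-5p the parent point lies above both subclones, while miR-125b-5p is nearly level.

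The first question was how the family stood in subclone1, the strain with lung tropism, relative to the parent. None of the 7 kept members differed 2-fold with an interval excluding 1, against 13.0% of all 192 kept miRNAs. Smaller differences beyond counting error were found in 4 members, and all 4 were lower in subclone1, against 30.2% of kept miRNAs with an interval wholly below 1. Intervals wholly above 1 were found in 38.5% of kept miRNAs and in 0 members. With a minimum of 100 CPM, 4 of 5 members lay below, against 37.4% of 91 kept miRNAs. The median log2 ratio of the 7 members was -0.29, beside 0.02 for all kept miRNAs.

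The lowest ratio was that of hsa-miR-99b-5p, with 6106 counts (773 CPM) in the parent and 1642 counts (460 CPM) in subclone1. This is 0.595 times the parent level, a log2 ratio of -0.75 with an interval of -0.83 to -0.67. It ranked 11 from the lowest among the 192 kept miRNAs. hsa-miR-125a-5p, from the same chromosome 19 cluster, stood at -0.37 on the log2 scale (interval -0.47 to -0.26). The counts of hsa-miR-100-5p were 3565 in the parent and 1067 in subclone1, a log2 ratio of -0.59 (-0.69 to -0.50). The log2 ratio of hsa-miR-99a-5p was -0.29 (-0.41 to -0.17). These 4 names kept an interval below 1 under every scaling tried.

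The remaining 3 kept members did not differ beyond counting error in subclone1. hsa-miR-125b-5p had a log2 ratio of -0.15 with an interval of -0.31 to 0.01, and the interval lay wholly below 1 with TMM scaling (log2 -0.21) and with median-of-ratios scaling (-0.21). The 3p names pointed the other way, with log2 ratios of 0.19 for hsa-miR-99b-3p (interval -0.14 to 0.51) and 0.11 for hsa-miR-125b-2-3p (-0.30 to 0.51).

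The strain with dual tropism, subclone2, was next compared with the parent. Again 0 of the 7 kept members passed 2-fold, against 10.7% of 187 kept miRNAs. Intervals wholly below 1 were found in 5 members, against 47.6% of kept miRNAs, and intervals wholly above 1 in 0 members, against 21.9%. With a minimum of 100 CPM, 4 of 5 members lay below, against 57.5% of 87 kept miRNAs. The lean of all miRNAs toward lower values in this comparison moves with the scaling. The members had a median log2 ratio of -0.31, beside -0.15 for the kept miRNAs as a whole. TMM scaling, which trims the most extreme miRNAs before it sets a common level, shifted every log2 ratio of subclone2 by 0.17 against the parent and by 0.23 against subclone1. With it the median of all kept miRNAs against the parent was 0.02 and that of the members -0.14, and 35.4% of kept miRNAs had intervals above 1 and 27.5% below.

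The chromosome 19 names stayed lower in subclone2 under every scaling tried. hsa-miR-99b-5p had 2194 counts (480 CPM), a log2 ratio against the parent of -0.69 (interval -0.76 to -0.62), or -0.52 with TMM scaling. hsa-miR-125a-5p had 1162 counts (254 CPM), a log2 ratio of -0.49 (-0.59 to -0.39), or -0.32 with TMM scaling. Both names were thus lower in both subclones than in the parent. The parent library is shared by these comparisons, so the second is no independent repeat of the first.

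The other 5p names lay nearer the parent in subclone2. hsa-miR-100-5p, with 1766 counts (387 CPM), had a log2 ratio of -0.22 (interval -0.31 to -0.14), but its interval held 1 with TMM scaling (log2 -0.05) and with median-of-ratios scaling (-0.08). hsa-miR-99a-5p had -0.18 (-0.29 to -0.08), and its interval held 1 with TMM scaling (log2 -0.01), with median-of-ratios scaling (-0.03) and with a total that leaves out let-7 (-0.08). hsa-miR-125b-5p did not differ beyond counting error, with a log2 ratio of 0.03 (-0.11 to 0.17), although its interval lay above 1 with TMM scaling (0.20) and with median-of-ratios scaling (0.18).

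Among the 3p names, hsa-miR-125b-2-3p had 160 counts in the parent and 64 in subclone2, a log2 ratio of -0.52 (interval -0.97 to -0.10), and its interval held 1 with TMM scaling (log2 -0.35) and with median-of-ratios scaling (-0.38). hsa-miR-99b-3p had -0.31 (-0.66 to 0.02). hsa-miR-99a-3p was under the minimum level. Its 22 and 4 counts gave 0.315 times the parent level, with a log2 interval of -3.67 to -0.11. The TMM shift of 0.17 in this comparison would bring that interval to hold 1.

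The subclones were then compared with each other, which sets dual tropism beside lung tropism, with 1 clone for each. None of the 7 kept members passed 2-fold, against 5.76% of 191 kept miRNAs. An interval wholly above 1 was found in 1 member, against 15.7% of kept miRNAs, and intervals wholly below 1 in 2 members, against 44.0%. With TMM scaling these were 4 and 0 members, against 35.4% and 23.4% of kept miRNAs. The 1 higher member was hsa-miR-100-5p, with 299 CPM in subclone1 and 387 CPM in subclone2, a log2 ratio of 0.37 (interval 0.26 to 0.48). It was higher under every scaling tried, with 0.60 under TMM, and ranked 179 from the lowest among 191 kept miRNAs. The 2 lower members were the 3p names hsa-miR-125b-2-3p (log2 -0.64, interval -1.14 to -0.15) and hsa-miR-99b-3p (-0.51, interval -0.89 to -0.12). Both intervals held 1 with TMM scaling (log2 -0.41 and -0.27) and with median-of-ratios scaling (-0.43 and -0.29).

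hsa-miR-99b-5p (log2 0.06, interval -0.03 to 0.16), hsa-miR-99a-5p (0.11, interval -0.03 to 0.24), hsa-miR-125b-5p (0.18, interval -9.0e-05 to 0.35) and hsa-miR-125a-5p (-0.12, interval -0.24 to 0.01) did not differ beyond counting error between the subclones. With each of the 3 other scalings the intervals of the first 3 lay above 1 (0.30, 0.34 and 0.41 with TMM), and hsa-miR-125a-5p had 0.11 with TMM, within counting error. A difference between the subclones therefore depended on the scaling in the first 3 names, while the interval of hsa-miR-125a-5p held 1 under every scaling tried.

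**Figure D3:**
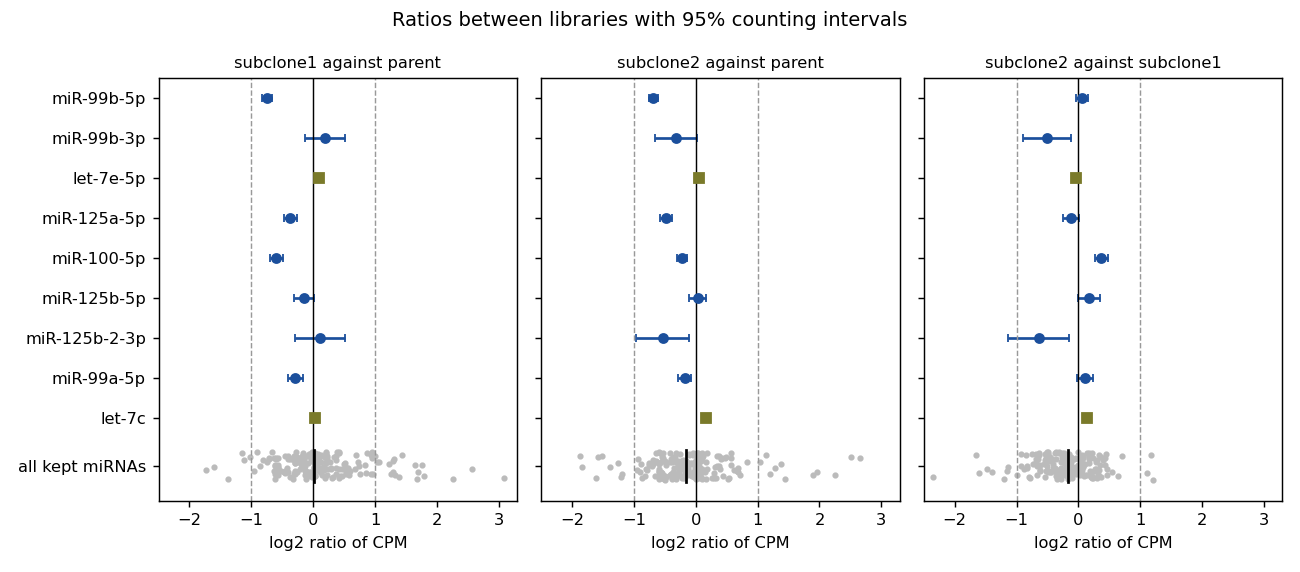
Log2 ratio of CPM for the 7 kept members (blue circles) and the let-7 names of the same clusters (olive squares) in the 3 comparisons, with 95% intervals for counting error. Grey points are all kept miRNAs with their median as a black line, and dashed lines mark 2-fold. miR-99b-5p lies at -0.75 and -0.69 against the parent while let-7e-5p, from the neighbouring hairpin, lies at 0.10 and 0.05.

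The members were also summed by miRNA. miR-100 was taken with all of miR-125b, and this sum is not the chromosome 11 cluster, since it holds hsa-miR-125b-2-3p and an unknown part of hsa-miR-125b-5p from chromosome 21. miR-99b with miR-125a had 1161, 772 and 761 CPM, with log2 ratios against the parent of -0.59 (interval -0.65 to -0.53) and -0.61 (-0.67 to -0.55). miR-100 with miR-125b had 609.8, 447 and 542 CPM, with log2 ratios of -0.45 (-0.53 to -0.37) and -0.17 (-0.24 to -0.10). miR-99a alone had 274, 225 and 240 CPM, with log2 ratios of -0.28 (-0.40 to -0.17) and -0.19 (-0.30 to -0.09). Scaled by the library total, the chromosome 19 pair was thus lower by a similar amount in both subclones. With TMM it was still lower in both, but its log2 ratios were -0.65 in subclone1 and -0.44 in subclone2. In subclone2 the intervals of the other 2 sums held 1 with TMM, where the log2 ratio of miR-100 with miR-125b was 0.0015 and that of miR-99a was -0.020.

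Summed by seed, the miR-99/100 group had 1495, 981 and 1106 CPM. The miR-125 group had 494, 400.5 and 395 CPM. The miR-99/100 group stood at 0.656 and 0.740 times the parent level in the subclones, and the miR-125 group at 0.810 and 0.799 times. Both groups stayed below the parent in both subclones under every scaling tried.

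Shares within a library do not depend on its scaling, and they were used to compare members with each other. hsa-miR-99b-5p made up 51.7% (interval 50.8 to 52.6), 46.9% (45.2 to 48.5) and 43.4% (42.0 to 44.8) of the miR-99/100 5p counts. The odds of a count being hsa-miR-99b-5p were 0.825 times those in the parent for subclone1 (0.765 to 0.891) and 0.718 times for subclone2 (0.671 to 0.767). hsa-miR-125a-5p made up 72.1% (70.7 to 73.5), 69.0% (66.5 to 71.3) and 64.4% (62.2 to 66.6) of the miR-125 5p counts, with odds against the parent of 0.859 (0.751 to 0.983) and 0.700 (0.620 to 0.790). In both seed groups the chromosome 19 member thus had a smaller share in the subclones than in the parent, and its share was lowest in subclone2. Against subclone1 the odds in subclone2 were 0.869 (0.797 to 0.949) for hsa-miR-99b-5p and 0.815 (0.701 to 0.947) for hsa-miR-125a-5p. With all arms summed the second was 0.873 (0.756 to 1.01), so that its interval held 1.

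hsa-miR-99a-5p and hsa-miR-100-5p, which differ at base 16, divided differently in subclone1. hsa-miR-99a-5p made up 37.6% (36.3 to 38.8), 42.7% (40.4 to 44.9) and 38.3% (36.5 to 40.1) of their sum. The odds ratio was 1.24 for subclone1 against the parent (1.11 to 1.38) and 1.03 for subclone2 against the parent (0.937 to 1.13). Reads exchanged between these names would touch this share, and their part was not tested.

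Members of the same cluster also differed from each other. hsa-miR-99b-5p made up 68.4% (67.5 to 69.4), 62.5% (60.6 to 64.3) and 65.4% (63.7 to 67.0) of its sum with hsa-miR-125a-5p, and the odds were lower than in the parent in both (0.768, interval 0.701 to 0.842, and 0.871, interval 0.800 to 0.948). hsa-miR-100-5p made up 76.6%, 70.6% and 73.3% of its sum with hsa-miR-125b-5p, but the latter name comes partly from chromosome 21.

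The arms of miR-99b, cut from 1 hairpin, had ratios of opposite sign in subclone1. Their share restates these counts without the scaling and is no further support for that difference. For miR-99b the 3p arm had the fewer counts in every library. The minor strand of a duplex is usually discarded at loading. hsa-miR-99b-3p made up 3.71% of the miR-99b counts in the parent (235 of 6341, interval 3.25 to 4.20). It made up 6.86% in subclone1 (121 of 1763, interval 5.73 to 8.15) and 4.73% in subclone2 (109 of 2303, interval 3.90 to 5.68). The odds ratio against the parent was 1.91 for subclone1 (1.51 to 2.41) and 1.29 for subclone2 (1.01 to 1.64). In subclone1 the 3p level was close to that of the parent, at 33.9 against 29.7 CPM, while the 5p level was lower.

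The 3p names also separate the copies of miR-125b. Of the counts of both 3p names, hsa-miR-125b-1-3p from chromosome 11 made up 3 of 163, 4 of 82 and 5 of 69, which is 1.84% (0.381 to 5.28), 4.88% (1.34 to 12.0) and 7.25% (2.39 to 16.1). Nearly all 3p counts thus bore the chromosome 21 name. How the hsa-miR-125b-5p counts divide between the copies cannot be read from this, since the kept share of each 3p arm is not known. Beside hsa-miR-125b-5p, hsa-miR-125b-2-3p made up 12.8% (11.01 to 14.8), 14.9% (12.0 to 18.3) and 9.07% (7.05 to 11.4). The odds ratio of subclone2 was 0.679 against the parent (0.491 to 0.928) and 0.568 against subclone1 (0.392 to 0.819).

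For miR-125a, the 3p share was 0.530%, 0.805% and 0.938%, with overlapping intervals. For miR-99a it was 1.01%, 1.37% and 0.364%. The odds ratio of subclone2 against subclone1 for miR-99a was 0.264 (0.0611 to 0.895), on 4 and 11 counts of the 3p name. For miR-100 no more than 4 counts of the 3p name were found in a library, and no difference from the parent was detectable at this depth. Between the subclones, with 0 of 1766 and 4 of 1071 counts, the interval of the odds ratio reached up to 0.917.

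**Figure D4:**
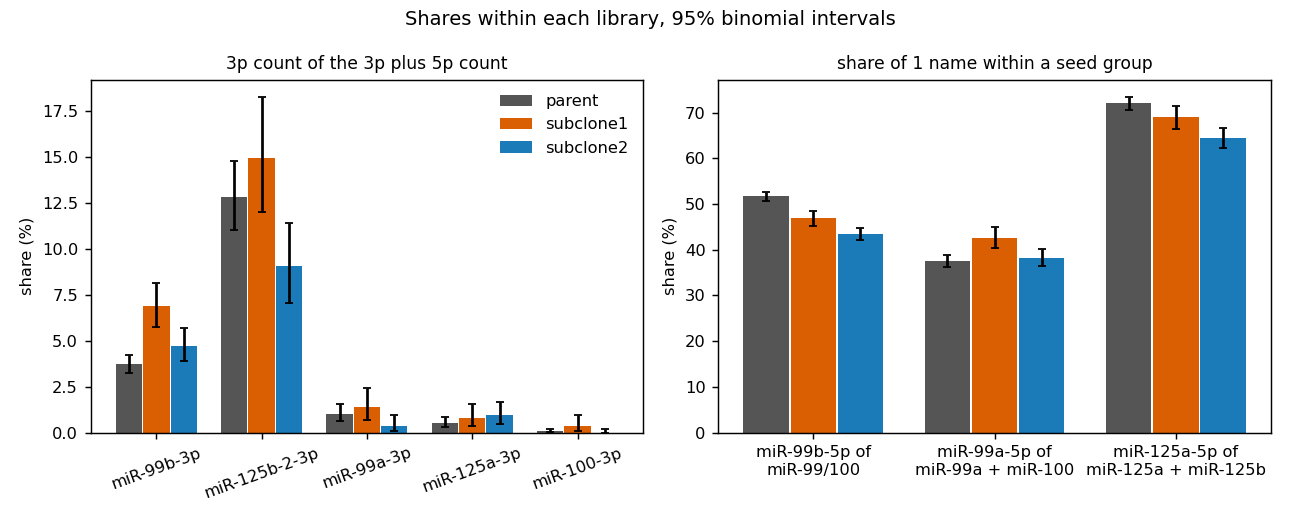
Shares within each library in percent as bars from 0, with exact 95% binomial intervals as black lines. The left panel gives the 3p count of the 3p plus 5p count, where miR-99b-3p stands at 3.71%, 6.86% and 4.73%. There miR-125b-2-3p is set beside miR-125b-5p, which comes from hairpins on chromosomes 11 and 21. Its bars are therefore not the arm share of a single hairpin. The right panel gives shares within a seed group, where miR-99b-5p and miR-125a-5p take less in both subclones than in the parent.

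Finally, the let-7 miRNAs of the same clusters were set beside the members. The list held hsa-let-7c, hsa-let-7e-5p, hsa-let-7e-3p and hsa-let-7a-2-3p. hsa-let-7e-5p, whose hairpin lies 104 bases from MIR99B, had 12523, 13384 and 12995 CPM. Its log2 ratios against the parent were 0.10 (interval 0.08 to 0.11) and 0.05 (0.04 to 0.07). With TMM scaling they were 0.03 and 0.22. hsa-let-7c, whose hairpin lies 658 bases from MIR99A, had 19208, 19559 and 21628 CPM. Its log2 ratio against the parent was 0.03 in subclone1, but -0.04 with TMM and with median-of-ratios scaling, and 0.17 in subclone2, or 0.34 with TMM. hsa-let-7e-3p had 8, 11 and 9 counts and hsa-let-7a-2-3p had 0, 1 and 0.

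Set against the let-7 neighbour in the same library, hsa-miR-99b-5p, hsa-miR-125a-5p and hsa-miR-99a-5p had smaller shares in both subclones than in the parent, a measure that does not depend on the scaling. hsa-miR-99b-5p made up 5.81% (interval 5.67 to 5.95), 3.32% (3.17 to 3.48) and 3.56% (3.42 to 3.71) of its sum with hsa-let-7e-5p. The odds against the parent were 0.557 (0.526 to 0.589) and 0.599 (0.570 to 0.630). For hsa-miR-125a-5p beside hsa-let-7e-5p the share was 2.77%, 2.02% and 1.92%, with odds of 0.725 (0.673 to 0.781) and 0.688 (0.641 to 0.737). For hsa-miR-99a-5p beside hsa-let-7c it was 1.39%, 1.12% and 1.10%, with odds of 0.804 (0.740 to 0.873) and 0.783 (0.727 to 0.843). hsa-let-7e-5p and hsa-let-7c each differ by 1 base from the far more abundant hsa-let-7a-5p (215023 to 230781 CPM), so misassigned reads could make up some of their counts. How many was not tested.

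The miRNAs whose ratios lay nearest to each 5p member were taken from 121 other names with at least 100 counts in every library. Nearness was the Euclidean distance between pairs of log2 ratios, those of subclone1 and of subclone2 against the parent. Both ratios of a pair share the parent library. hsa-miR-99b-5p was nearest to hsa-miR-7-5p (distance 0.088) and hsa-miR-221-5p (0.12). hsa-miR-100-5p was nearest to hsa-let-7g-5p (0.071) and hsa-miR-25-5p (0.10). hsa-miR-125a-5p was nearest to hsa-miR-365a-5p (0.043) and hsa-miR-92a-3p (0.093). hsa-miR-99a-5p was nearest to hsa-miR-96-5p (0.012) and hsa-miR-21-5p (0.088), and hsa-miR-125b-5p to hsa-miR-23b-5p (0.0049) and hsa-miR-92b-5p (0.066). None of these was another member, as members were left out of the candidates.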

How the data were processed

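Total RNA from 3 HCCLM3 cultures was made into small RNA libraries with the Illumina TruSeq Small RNA kit. The authors deposited raw read counts per mature miRNA name, 1 table per library. Their processing notes name CASAVA 1.4 and hg19. The aligner, adapter trimming, mismatch limit, miRBase release and treatment of reads that match several names are not given in the sources used here.

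Counts were divided by the library total to give CPM. Names that averaged 10 CPM or more in the compared pair were kept. Log2 ratios were computed with 0.5 counts added, and their exact conditional binomial 95% intervals without it. A call required a 2-fold difference and an interval excluding 1. Shares have Clopper-Pearson intervals and conditional odds ratios. TMM factors (edgeR 4.0.16, R 4.3.3) and median-of-ratios factors (computed in Python) were used only to rescale. A total without let-7, other minimum levels, a fold of 1.5 and a pseudocount of 5 were also tried. Python 3.11.15, scipy 1.17.1 and pandas 2.3.3 were used. Scripts were tested on simulated data. With 1 library per strain, intervals cover counting error only.

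Members and lists were chosen with earlier results of these data known. The text names every member, the let-7 names of the clusters and, for each 5p member, the 2 names with the nearest ratios.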

Additional observations from a re-analysis of the deposited data

How the results depend on the processing

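No paired analysis was possible because each strain had 1 library, which also means that no library could be left out. Of the values recomputed under the alternatives, 36 of 51 counts stayed within 1.5 times and 13 of 18 shares stayed inside the reported interval. Direction and side of 1 were kept by 58 of 84 member ratios and 39 of 54 sums. Values inside these tallies still moved. The member ratios with a pseudocount of 5 could not change side, since the intervals are computed without a pseudocount. All of them count among the 58, so that tally is no measure of robustness for them. The 36 counts include those of 0 members passing 2-fold under the other scalings and the minimum of 100 CPM. No rescaling could bring a kept member to 2-fold, since the largest log2 shift was 0.23 and the lowest member ratio -0.75. A higher minimum cannot add a call, so these counts are no measure of robustness either. Both TMM and median-of-ratios scaling gave 1 member above and 2 below the parent in subclone2, where 0 and 5 were reported. Of all kept miRNAs 35.4% lay above and 27.5% below with TMM, and 32.8% and 29.1% with median-of-ratios. Between the subclones both gave 4 above and 0 below, where 1 and 2 were reported, and a total without let-7 also gave 4 above. Of all kept miRNAs 35.4%, 33.3% and 23.4% lay above in these 3 settings, and 23.4%, 25% and 34.9% below. With no minimum level 1 member, hsa-miR-99a-3p, passed 2-fold in subclone2 against the parent and 1 against subclone1, beside 9.07% of 827 and 4.23% of 780 names. Both calls used the library total, and the TMM shifts of 0.17 and 0.23 would bring both intervals to hold 1. With a fold of 1.5, 2 members passed in subclone1 (hsa-miR-99b-5p and hsa-miR-100-5p), 1 in subclone2 (hsa-miR-99b-5p) and 1 between the subclones (hsa-miR-125b-2-3p), against 29.2%, 26.7% and 18.8% of all kept miRNAs. A minimum of 100 CPM kept 5 members and left 0 lower and 1 higher in subclone2 than in subclone1. Of 90 kept miRNAs 56.7% lay below and 23.3% above in this setting.

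With TMM, median-of-ratios and a total without let-7, in that order, the log2 ratio of subclone2 against the parent was -0.020, -0.043 and -0.089 for miR-99a and 0.0015, -0.022 and -0.068 for miR-100 with miR-125b. Between the subclones it was 0.32, 0.31 and 0.19 for miR-99a, 0.21, 0.19 and 0.072 for miR-99b with miR-125a, and 0.21, 0.19 and 0.073 for the miR-125 seed group. For hsa-miR-125a-5p it was 0.11 with TMM and 0.095 with median-of-ratios. With all arms summed, the miR-125a share was 69.3%, 65.4% and 62.3%, and the miR-100 share beside miR-125b was 74.0%, 67.1% and 71.3%. The rescaling moves every ratio of a comparison by 1 amount; which scaling is right was not tested. Names with few counts, mainly the 3p arms, were limited by depth.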
